A study of Mus musculus with 6 samples.

Results

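Serpins are a family of structurally related proteins, most of which inhibit proteases, and their genes are sorted into clades that are named by a letter. Their RNA was measured by RNA-Seq in subcutaneous inguinal white fat (iWAT), in mice with an *Hlx* transgene and in their littermates without it. A row of the gene table was taken as a member when one of its gene symbols starts with Serpin, which held for 61 of 19445 rows and 63 symbols. Of these rows, 23 belong to clade A, 27 to clade B, 3 to clade E, 2 each to clades F and I, and 1 each to clades C, D, G and H. The comparison was made between 3 transgenic (TG) and 3 wild type (WT) mice, all 12 weeks old and labelled male, with 1 library per mouse. The transgene is the *Hlx* cDNA, which encodes a homeobox transcription factor, behind the *aP2* (*Fabp4*) promoter, which is active in adipocytes and also in some macrophages. The founders were C57BL/6 and SJL hybrids that were then backcrossed to C57BL/6. iWAT is a subcutaneous depot in which thermogenic, brown-like adipocytes can form, and the data were collected to learn how far the transgene remodels this depot.

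An inhibitory serpin presents an exposed loop, the reactive center loop, as bait to its target protease. Cleavage of the loop inserts it into the body of the serpin and traps the protease in a covalent complex. Other members have lost this activity and serve as hormone carriers, as hormone precursors or as chaperones. In fat, serpins include secreted inhibitors of the complement, coagulation and plasminogen cascades and intracellular inhibitors that guard cells from their own granule and lysosomal proteases.

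The unit of the table is FPKM, a read count scaled to the length of the transcript and the size of the library, so levels can be compared between genes. Differences were tested with limma on log2(FPKM + 1) across the 11692 rows whose mean was over 1 FPKM in either genotype, and an adjusted p under 0.05 was called. Fold changes are TG minus WT on this log2 scale, on which a low gene shows less than its true change. *Hlx* itself was at 79.6 to 110 FPKM in the TG mice and at 6.88 to 8.14 FPKM in the WT mice, so the labels hold for genotype. The labels give males, but *Xist*, the RNA that coats the silenced X chromosome in female cells, was at 20.2 to 33.6 FPKM in the 6 libraries. The 28 rows of the Y chromosome were at 0 in every library. This is the pattern of female tissue, so the labels do not hold for sex. All 8 adipocyte markers checked were over 1 FPKM. Absolute depth is unknown. Relative depth, read from the steps between low values, ranged from 0.691 to 1.41 of that of WT replicate 3 and was lowest in TG replicates 1 and 3. TG replicate 2 held the most skeletal muscle RNA, with a sum of 670.2 FPKM over 9 muscle markers, against 93.5 and 133 FPKM in the other TG libraries and 7.64 to 141 FPKM in the WT libraries. *Tnnt3* is left out of this sum, since its row is merged with *Lsp1*, a leukocyte gene. For any one gene, the smallest two-sided p that exact permutation of 3 and 3 mice allows is 0.1.

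Of the 61 serpin rows, 19 passed the expression filter. *Serpinb5*, with a higher group mean of 1.59 FPKM, was near its lower edge, and *Serpina3k*, with 0.912 FPKM, was just outside. Of the 42 rows that did not pass, 12 were at 0 in all 6 libraries, 11 of them in clade B, and the highest group mean among the other 30 was that of *Serpina3k*.

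In transgenic iWAT, 5 of the 19 tested serpin rows fell and 0 rose (limma). The falls were those of *Serpina3n*, *Serpina3c*, *Serpinb8*, *Serpinf1* and *Serpinb6a*. Among all 11692 tested rows, 7.03% fell and 11.6% rose. At an unadjusted p under 0.05, 9 of the 19 serpin rows were lower, against 16.8% of all tested rows, and 0 were higher, against 19.4%. Every TG mouse was below every WT mouse at 9 of the 19 rows, where this held for 20.1% of all tested rows, and every TG mouse was above every WT mouse at 1 row, where it held for 22.8%. Over all 61 serpin rows, with no filter, the TG mice were below the WT mice at 15 rows, against 14.1% of all 19445 rows, and above at 3, against 15.2%. The mean was lower in TG iWAT, on the log2 scale, at 16 of the 19 tested serpin rows, against 51.6% of all tested rows. The median log2 fold change was -0.42 over the 19 rows and -0.01 over all tested rows. When a mouse was left out in turn, the number of serpin rows that fell ranged from 3 to 7. It was 3 without TG replicate 1, TG replicate 3 or any of the WT replicates, and *Serpina3n*, *Serpina3c* and *Serpinb8* kept their call in each case. It was 7 without TG replicate 2, where *Serpinb1a* and *Serping1* were added. That mouse had the highest sums of muscle, macrophage, mast cell and lymphocyte markers among the TG mice. The part of these in the added calls was not tested.

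**Figure D1:**
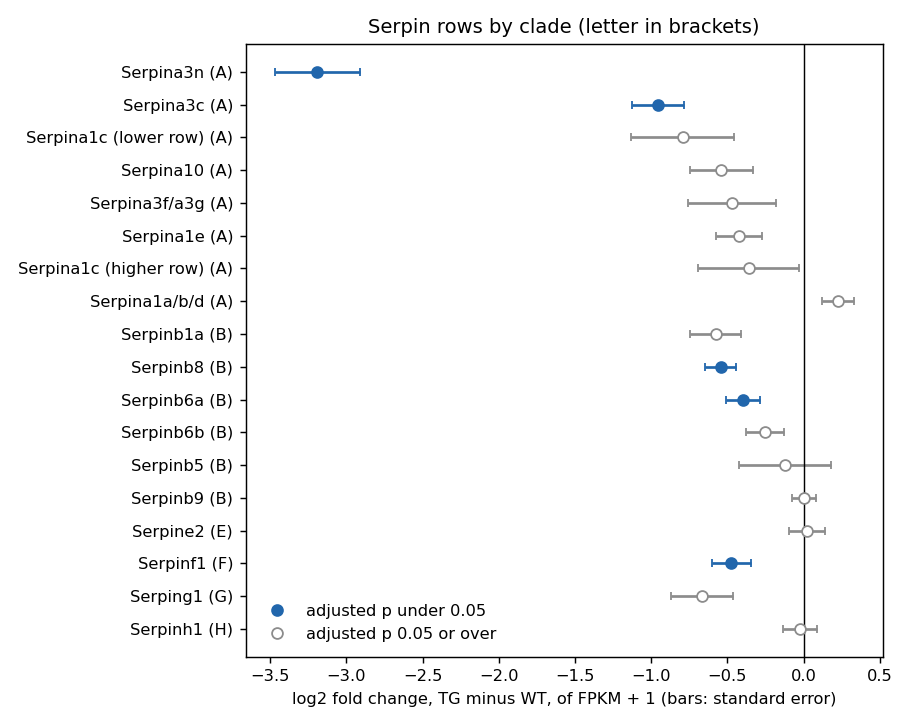
Log2 fold change of FPKM + 1 (x axis, TG minus WT, bars show the standard error, n = 3 mice per genotype) of the tested serpin rows, 1 left out, ordered by clade, with filled points for an adjusted p under 0.05. *Serpina3n* lies at -3.19, and only the row of *Serpina1a*, *Serpina1b* and *Serpina1d* lies clearly to the right of 0, at 0.22.

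A few genes made up most of the serpin RNA. The FPKM of all serpin rows summed to 889, 1087 and 869 in the TG mice and to 1411, 1258 and 1299.8 in the WT mice, so the genotypes did not overlap. *Serpinf1*, *Serpinh1* and *Serping1* together held 77.3% to 78.4% of this sum in the TG mice and 67.8% to 74.0% in the WT mice. *Serpina3n* held 0.733% to 1.36% in the TG mice and 5.71% to 9.68% in the WT mice. By mean level, *Serpina3n* ranked 5 among the serpin rows in WT iWAT and 9 in TG iWAT, while *Serpinh1* moved from rank 2 to rank 1. The leading positions are close, since the WT ranges of *Serpinf1* and *Serpinh1*, and of *Serpina3n* and *Serpina3c*, overlap.

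**Figure D2:**
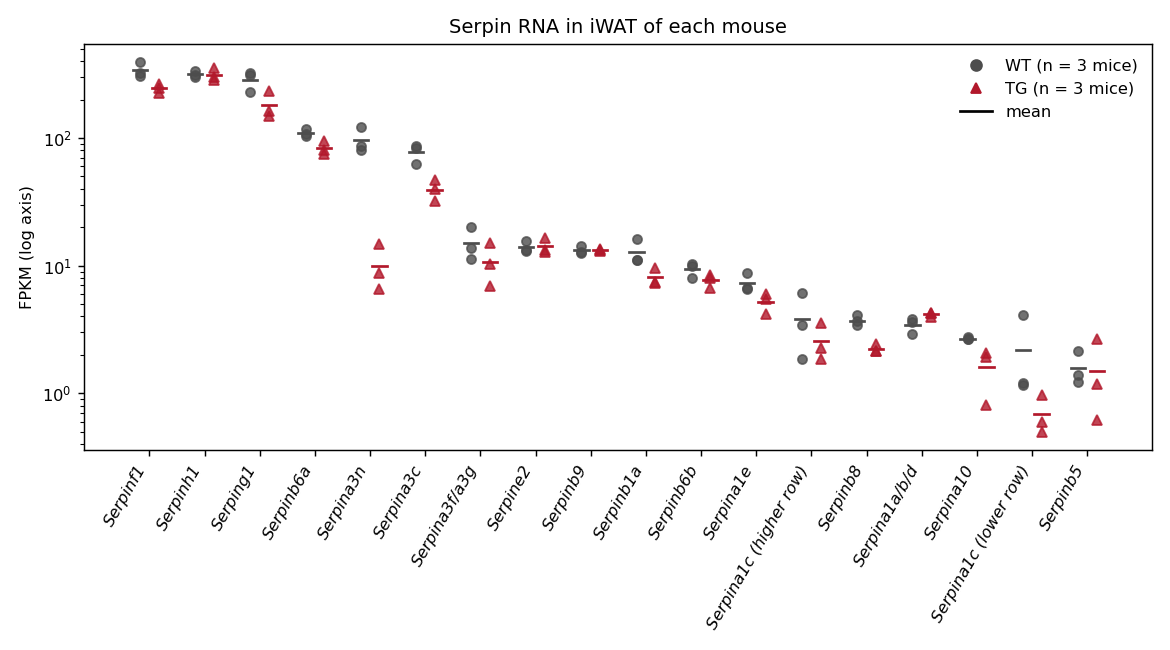
FPKM (y axis, log scale) of the tested serpin rows, 1 left out, in each of 3 WT mice (circles) and 3 TG mice (triangles), with lines at the group means, ordered by the WT mean. The TG mice lie far below the WT mice at *Serpina3n* (10.03 against 96.6 FPKM on average), while both genotypes coincide at *Serpinh1* and *Serpinb9*.

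Clade A holds secreted serpins, many of them acute phase proteins that the liver also makes, and 22 of its 23 rows lie in a cluster on chromosome 12 of mm10 between 103616674 and 104414329. Of the 8 clade A rows tested, 2 fell and 0 rose, against 7.03% and 11.6% of all tested rows. A lower mean in TG iWAT was seen at 7 of the 8, against 51.6% of all tested rows. *Serpina3n*, a secreted inhibitor of granzyme B and of chymotrypsin-like proteases, had the largest change. It was at 6.52, 14.8 and 8.80 FPKM in the TG mice and at 80.7, 122 and 87.3 FPKM in the WT mice. The highest TG mouse was thus far below the lowest WT mouse. The means were 10.03 ± 4.26 FPKM in TG and 96.6 ± 22.1 FPKM in WT iWAT (SD, n = 3 mice each), a 9.63-fold lower level. On the log2 scale it fell by 3.19 (standard error 0.28, limma adjusted p = 0.000914), and permutation gave its smallest possible exact p of 0.1. The call held in all 17 other settings, with log2 fold changes from -3.48 to -2.95.

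*Serpina3c*, a related secreted inhibitor, was at 39.6, 46.7 and 32.1 FPKM in the TG mice and at 83.3, 86.1 and 62.7 FPKM in the WT mice. The genotypes did not overlap. It fell by 0.96 on the log2 scale (standard error 0.17, limma adjusted p = 0.0113), a 1.96-fold lower mean. Its row shares its locus in the table with that of *Serpina3b*, which had a mean of 0.0594 FPKM in TG and 0.0488 FPKM in WT iWAT. The call of *Serpina3c* was lost with no filter on low values (adjusted p = 0.0633).

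The *Serpina3* group is a recent expansion in rodents, where several genes stand in place of the single human SERPINA3. The table has 10 *Serpina3* rows, and 8 of them had a lower mean FPKM in TG iWAT, where 42.3% of all rows did with no filter. Every TG mouse was below every WT mouse at 6 of the 10, namely *Serpina3n*, *Serpina3c*, *Serpina3h*, *Serpina3j*, *Serpina3k* and *Serpina3m*, where this held for 14.1% of all rows with no filter. The last 4 of these were under the expression filter and were not tested with it. *Serpina3m* was at 0, 0.0902 and 0.0744 FPKM in the TG mice and at 0.628, 0.819 and 0.618 FPKM in the WT mice. *Serpina3k* was at 0, 0.0680 and 0 FPKM in the TG mice and at 2.08, 0.238 and 0.414 FPKM in the WT mice. Both genes were low in every mouse, and the WT mice spread widely at *Serpina3k* but not at *Serpina3m*. In a fit with no filter, *Serpina3m* had an adjusted p of 0.0164 and *Serpina3k* of 0.303 (limma), where 1.96% of all rows were called lower and 3.85% higher. In that fit, 3 of the 61 serpin rows fell, *Serpina3m*, *Serpina3n* and *Serpinb8*, and 0 rose. The shared row of *Serpina3f* and *Serpina3g* was at 6.90, 15.0 and 10.4 FPKM in the TG mice and at 11.2, 13.7 and 20.2 FPKM in the WT mice. These ranges overlap (log2 fold change -0.47, standard error 0.29, limma adjusted p = 0.282). The value was -0.21 without TG replicate 1, -0.25 without WT replicate 3 and -0.72 without TG replicate 2.

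**Figure D3:**
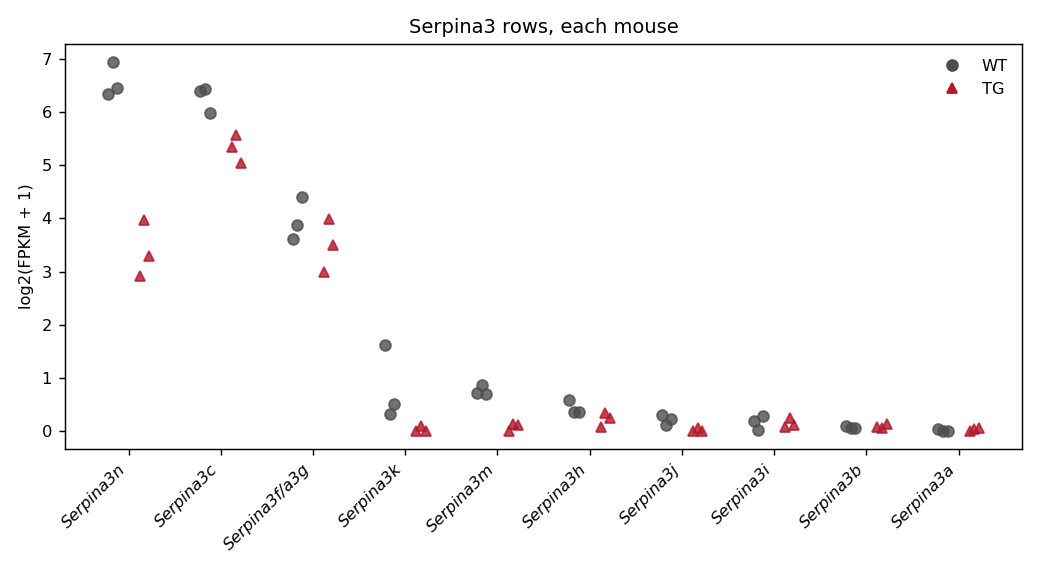
Log2(FPKM + 1) (y axis) of the 10 *Serpina3* rows in each WT mouse (circles) and TG mouse (triangles), ordered by the WT mean. The genotypes are apart at *Serpina3n* and *Serpina3c*, overlap at *Serpina3f*/*Serpina3g*, and the other 7 rows are near 0 in most mice.

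The *Serpina3* genes are close copies, so the stretch of the last coding exon that encodes the reactive center loop is given for *Serpina3n* and 5 relatives, to show by which bases reads can tell them apart. The sequences are from GENCODE vM21 transcripts (GRCm38, which is mm10), 5′ to 3′ on the coding strand. Capitals mark bases that differ from *Serpina3n*, or are inserted against it, in a pairwise alignment.
Serpina3n: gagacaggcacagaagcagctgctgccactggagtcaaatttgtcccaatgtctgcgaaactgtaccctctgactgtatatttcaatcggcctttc
Serpina3m: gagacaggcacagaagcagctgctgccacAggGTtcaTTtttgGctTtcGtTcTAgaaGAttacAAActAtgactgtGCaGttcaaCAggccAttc
Serpina3k: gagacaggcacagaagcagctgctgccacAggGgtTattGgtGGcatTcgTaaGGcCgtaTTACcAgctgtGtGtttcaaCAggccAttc
Serpina3c: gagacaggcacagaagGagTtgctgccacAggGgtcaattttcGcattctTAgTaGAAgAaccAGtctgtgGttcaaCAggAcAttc
Serpina3f: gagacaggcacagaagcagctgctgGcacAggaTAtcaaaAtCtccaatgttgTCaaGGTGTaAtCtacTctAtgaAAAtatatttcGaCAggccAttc
Serpina3g: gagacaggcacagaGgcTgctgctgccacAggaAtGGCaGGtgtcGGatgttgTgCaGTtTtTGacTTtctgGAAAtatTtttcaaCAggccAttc
The *Serpina3n* stretch is at chr12:104413442-104413537 on the plus strand, in exon 5 of 5, and that of *Serpina3c* is at chr12:104147307-104147393 on the minus strand, in exon 5 of 5. Those of *Serpina3m* and *Serpina3k* are at chr12:104393763-104393858 and chr12:104345263-104345352, and those of *Serpina3f* and *Serpina3g* are at chr12:104220239-104220337 and chr12:104241066-104241161, all on the plus strand. The start of the stretch, which encodes the hinge of the loop, is nearly the same in all 6 genes, and most capitals fall after it. Identity to *Serpina3n* over the aligned stretch was 72.3% for *Serpina3m*, 70.4% for *Serpina3k*, 70.1% for *Serpina3c*, 73.5% for *Serpina3f* and 69.4% for *Serpina3g*. Over the whole coding sequence it was 85.2% for *Serpina3m* and 85.4% for *Serpina3c*.

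Few stretches of 100 bases in these *Serpina3* genes occur unchanged in another gene. Only exact matches were counted. Whether reads aligned with mismatches spilled from an abundant copy onto the low *Serpina3* rows was not tested. Of the 100-base windows (the nominal read length) of the *Serpina3n* transcript, 0.204% were also present in a transcript of another gene, and none of the 2114 windows of *Serpina3c* were. The share was 6.09% for *Serpina3m* and 4.85% for *Serpina3k*, which share windows with each other. It was far larger in the *Serpina1* genes, 69.3% for *Serpina1c*, 49.9% for *Serpina1a*, 29.3% for *Serpina1d*, 20.6% for *Serpina1b* and 14.8% for *Serpina1e*. Values of the *Serpina1* rows are therefore uncertain, since the counting could have split such reads between rows.

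The 250 bases before the start of *Serpina3n* and *Serpina3c* are shown because these are the clade A genes that fell. They are from the RefSeq promoter table of GRCm38.p6, where 51 of the 63 serpin symbols had an entry.
Serpina3n: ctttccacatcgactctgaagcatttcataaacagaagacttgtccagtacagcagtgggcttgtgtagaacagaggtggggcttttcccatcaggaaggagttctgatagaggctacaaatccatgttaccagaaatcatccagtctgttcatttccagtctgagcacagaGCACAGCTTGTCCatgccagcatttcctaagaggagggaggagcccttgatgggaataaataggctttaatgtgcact
Serpina3c: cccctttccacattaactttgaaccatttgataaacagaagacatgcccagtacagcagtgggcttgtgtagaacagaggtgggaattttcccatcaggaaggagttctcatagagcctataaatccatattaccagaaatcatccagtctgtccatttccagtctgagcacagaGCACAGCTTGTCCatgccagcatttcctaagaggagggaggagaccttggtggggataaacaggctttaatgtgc
The first is chr12:104406458-104406707 on the plus strand, and the other is chr12:104153873-104154122 on the minus strand. The 2 windows were identical at 229 of 253 aligned positions, or 90.5%. Capitals mark a match to GNACA and TGTNC with 3 bases between them, the palindromic response element of the glucocorticoid receptor and related steroid receptors. It lies 78 to 66 bases before the start in *Serpina3n* and 75 to 63 bases before the start in *Serpina3c*. Of 32817 promoter windows of this length, 127, or 0.387%, hold a match on either strand, and among 52 serpin genes with a window, *Agt* included, these were the 2 with one. A match to TTCNNNGAA, the STAT element, was present in 11 of 61 serpin windows against 7.01% of all windows, and a match to TTNNGCAA, a C/EBP element, in 15 of 61 against 9.57%. Neither was present in the *Serpina3n* or *Serpina3c* window, and no matches overlap in the windows shown. Binding was not measured, and a match describes letters only.

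The *Serpina1* genes encode alpha-1-antitrypsin, the main plasma inhibitor of neutrophil elastase. The row of *Serpina1a*, *Serpina1b* and *Serpina1d* was at 3.96 to 4.30 FPKM in the TG mice and at 2.93 to 3.84 FPKM in the WT mice. At no other tested serpin row was every TG mouse above every WT mouse. The row did not pass, and its log2 fold change was 0.22, with a standard error of 0.11 and a limma adjusted p of 0.174 (log2 fold change 0.14 without WT replicate 1). *Serpina1e* was at 4.15 to 6.05 FPKM in the TG mice and at 6.57 to 8.69 FPKM in the WT mice, with a log2 fold change of -0.42 (standard error 0.15) and an adjusted p of 0.0921 (limma). *Serpina1c* is on 2 rows with the same locus. The row with the higher mean overlapped between genotypes (log2 fold change -0.36, adjusted p = 0.465, limma), and its value ranged from -0.03 without WT replicate 2 to -0.68 without WT replicate 3, with -0.55 without TG replicate 1 and -0.21 without TG replicate 3. The other was at 0.502 to 0.971 FPKM in the TG mice and at 1.16 to 4.14 FPKM in the WT mice (log2 fold change -0.79, adjusted p = 0.141, limma, and -0.38 without WT replicate 2), and WT replicate 2 was the highest on both rows. *Serpina10*, the protein Z-dependent inhibitor of activated coagulation factor X, was at 0.806 to 2.07 FPKM in the TG mice and at 2.65 to 2.74 FPKM in the WT mice (log2 fold change -0.54, adjusted p = 0.108, limma, and -0.30 without TG replicate 1). Thus every TG mouse was below every WT mouse at 5 of the 8 tested clade A rows, the 2 called ones included. Every TG mouse was above every WT mouse at 1. Among all tested rows this held for 20.1% and 22.8%. Besides those called, 4 clade A rows were apart in this way, and none of the 4 passed the test. *Serpina6*, which encodes the corticosteroid carrier of plasma, was at 0 in all WT mice and at 0.0431 to 0.167 FPKM in the TG mice, and was not tested.

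*Agt*, the angiotensin precursor, is a clade A serpin by structure, and its symbol keeps it out of the 61 rows. It was at 0.801, 1.32 and 1.95 FPKM in the TG mice and at 32.9, 17.1 and 17.1 FPKM in the WT mice, so the genotypes did not overlap. It fell by 3.27 on the log2 scale (standard error 0.28, limma adjusted p = 0.000904). As clade A genes are liver products, 8 liver markers were read beside them. Their sum was 13.8 to 17.04 FPKM in the TG mice and 39.2 to 50.5 FPKM in the WT mice, with *Fga* at 0 in every mouse and *Ttr* at 0 in every mouse but WT replicate 3. Of the 3 that passed the filter, *Alb* fell (log2 fold change -1.91, adjusted p = 0.00225, limma), *Apoa2* rose (0.88, adjusted p = 0.0134, limma) and *Fgb* passed in neither direction.

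Clade B serpins lack a classical signal peptide and act mostly inside cells. Of its 27 rows, 15 lie on chromosome 13 and 12 on chromosome 1. Of the 6 rows tested, 2 fell and 0 rose, against 7.03% and 11.6% of all tested rows. *Serpinb8*, an inhibitor of furin-like and trypsin-like proteases, was at 2.13, 2.42 and 2.15 FPKM in the TG mice and at 3.68, 3.40 and 4.08 FPKM in the WT mice. The groups were apart with little spread in either. It fell by 0.54 on the log2 scale (standard error 0.10, limma adjusted p = 0.0121). *Serpinb6a*, an inhibitor of cathepsin G and trypsin, was the most abundant clade B gene. It was at 75.0, 95.2 and 79.9 FPKM in the TG mice and at 117, 104 and 108 FPKM in the WT mice. The groups did not overlap, and the mean was 1.31-fold lower (log2 fold change -0.39, standard error 0.11, limma adjusted p = 0.0493). This call is near the threshold. It was lost with each mouse left out except TG replicate 2 (adjusted p up to 0.141), with no filter (0.109) and without the variance trend (0.0535). The *Serpinb6a* locus in the table also covers *Nqo2* and *Ripk1*, and 12.2% of its windows are shared with the transcript of 1110046J04Rik.

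*Serpinb1a*, which inhibits neutrophil elastase, proteinase 3 and cathepsin G, was at 7.33 to 9.58 FPKM in the TG mice and at 10.99 to 16.1 FPKM in the WT mice. The groups did not overlap, and its adjusted p was 0.0539 (limma, log2 fold change -0.58, standard error 0.17). *Serpinb6b* was at 6.65 to 8.51 FPKM and 7.96 to 10.2 FPKM in TG and WT mice (adjusted p = 0.195, limma, with a log2 fold change of -0.25, and -0.16 without TG replicate 1). *Serpinb9*, the inhibitor of granzyme B in lymphocytes, was at 13.004 to 13.5 FPKM in the TG mice and at 12.6 to 14.2 FPKM in the WT mice. Its log2 fold change was 0.00 with a standard error of 0.08, both the smallest in size among the 19 rows. *Serpinb5* (maspin), an epithelial gene, was at 0.620, 1.18 and 2.67 FPKM in the TG mice and at 2.15, 1.39 and 1.23 FPKM in the WT mice. The TG mice spanned the WT range. The sum of 12 epithelial markers on single-gene rows was 167, 229 and 331 FPKM in the TG mice and 383, 342 and 275 FPKM in the WT mice, with *Wap* at 0 in every mouse, and its part in the *Serpinb5* values was not tested. The *Serpinb3* genes, *Serpinb12* and *Serpinb13*, which mark stratified epithelium, were at 0 in all 6 libraries.

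Among the other clades, *Serpinf1*, which encodes PEDF, a secreted and non-inhibitory serpin that binds the lipase ATGL, fell. It was at 246, 265 and 223 FPKM in the TG mice and at 391, 308 and 325 FPKM in the WT mice. Every TG mouse was below every WT mouse, and the mean was 1.39-fold lower (log2 fold change -0.47, standard error 0.13, limma adjusted p = 0.0424). The call was lost with each mouse left out except TG replicate 2, with adjusted p up to 0.132, and with no filter (0.0975). With quantile normalization the log2 fold change was -0.81. *Serping1*, the inhibitor of the complement proteases C1r and C1s and of plasma kallikrein, was at 164, 234 and 148 FPKM in the TG mice and at 321, 231 and 309 FPKM in the WT mice. The groups overlapped through TG replicate 2 and WT replicate 2 (log2 fold change -0.67, standard error 0.20, limma adjusted p = 0.0627). The adjusted p was 0.0233 without TG replicate 2 and 0.0176 with quantile normalization.

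*Serpinh1* (HSP47), a chaperone of the endoplasmic reticulum that folds collagen and inhibits no protease, was at 287, 350.5 and 300.2 FPKM in the TG mice and at 332, 314 and 302 FPKM in the WT mice. The groups overlapped, and the difference on the log2 scale was -0.02 (standard error 0.11, limma adjusted p = 0.911), turning to 0.038 without TG replicate 1, to 0.0063 without TG replicate 3 and to 0.016 without WT replicate 1. With quantile normalization it was -0.35 (adjusted p = 0.0647). Of 10 collagen genes, whose products *Serpinh1* folds, 0 were called (limma), where 7.03% of all tested rows fell and 11.6% rose. Their median log2 fold change was -0.15. At an unadjusted p under 0.05 (limma), 1, *Col4a1*, was lower (log2 fold change -0.29) and 0 were higher, against 16.8% and 19.4% of all tested rows. In clade E, *Serpine2* (protease nexin 1), a cell surface inhibitor of thrombin and plasminogen activators, was at 12.8 to 16.5 FPKM in the TG mice and at 12.99 to 15.5 FPKM in the WT mice, with a log2 fold change of 0.02 (standard error 0.12). The groups overlapped. The liver and plasma inhibitors *Serpinc1* (antithrombin), *Serpind1* (heparin cofactor II) and *Serpinf2* (alpha-2-antiplasmin) and the neuronal *Serpini1* (neuroserpin) were under the filter, with group means of 0.0303 to 0.900 FPKM.

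**Figure D4:**
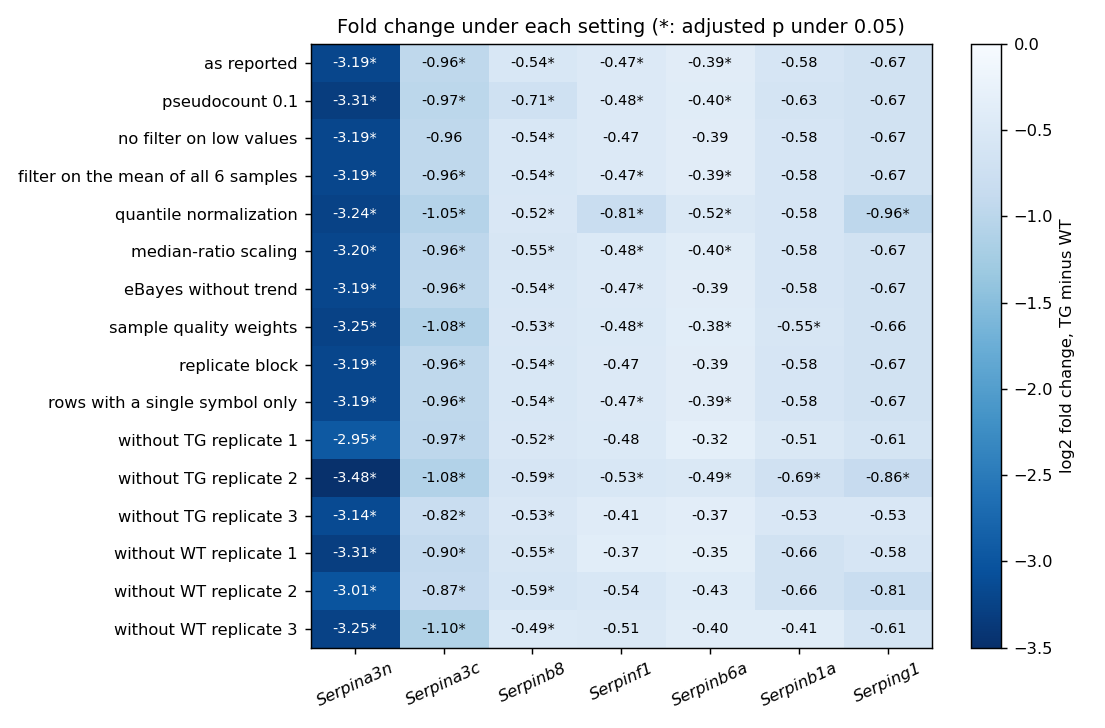
Log2 fold change (TG minus WT, cell numbers and color) of the 5 called serpin rows and of *Serpinb1a* and *Serping1* under each setting, with an asterisk for an adjusted p under 0.05. *Serpina3n* and *Serpinb8* carry an asterisk in every setting and *Serpina3c* in all but the one with no filter, while *Serpinf1* and *Serpinb6a* lose it in all that leave out a mouse other than TG replicate 2.

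Serine proteases and relatives, among them targets of serpins, were taken from a list, in which not every member is a serpin target. Of 32 serine proteases and relatives listed, 17 were tested. Of these, 6 fell and 0 rose, against 7.03% and 11.6% of all tested rows. At an unadjusted p under 0.05 (limma), 8 were lower and 0 were higher, against 16.8% and 19.4%. The mean was lower in TG iWAT at 16 of the 17 (51.6% of all tested rows), with a median log2 fold change of -0.53. *C1s* and *C1ra*, the complement proteases that *Serping1* inhibits, fell by 0.52 and 0.62 on the log2 scale (adjusted p = 0.00869 and 0.0348, limma). *C1s* was at 65.4 to 75.9 FPKM in the TG mice and at 102 to 106 FPKM in the WT mice. *Htra1*, a secreted protease of the matrix, fell by 0.95 (adjusted p = 0.00635, limma), from 154.5 ± 19.3 FPKM in WT to 79.9 ± 13.4 FPKM in TG iWAT (SD, n = 3 mice each). *Gzma*, a granzyme of cytotoxic lymphocytes, and *Hgf*, a growth factor with an inactive protease domain, fell by 0.50 and 0.69 (adjusted p = 0.0425 and 0.0177, limma). *Prtn3* (proteinase 3) fell by 1.57 (adjusted p = 0.0122, limma), but its locus is one with that of *Cfd*, a fat gene with means of 6110.5 FPKM in TG and 22266 FPKM in WT iWAT. Many other rows have this locus too, and their means go in both directions. *Atp5d* was at 682 FPKM in TG and 361 FPKM in WT iWAT, and *Cnn2* at 78.1 and 109 FPKM. The part of these rows in the *Prtn3* values was not tested. Of the targets of the plasminogen system, *Plat* and *Plau* were at 10.96 to 14.6 FPKM and 12.4 to 20.04 FPKM in the TG mice and at 12.99 to 19.4 FPKM and 18.1 to 23.1 FPKM in the WT mice (adjusted p = 0.203 and 0.339, limma), and *Plg* was near 0 throughout. The mast cell proteases *Cma1* and *Mcpt4*, which are chymotrypsin-like, had log2 fold changes of -0.76 and -0.75 with overlapping groups (adjusted p = 0.170 and 0.213, limma).

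Clade B serpins also inhibit cysteine proteases. Of 8 such proteases tested, 3 fell and 0 rose, against 7.03% and 11.6% of all tested rows, with a median log2 fold change of -0.36. At an unadjusted p under 0.05 (limma), 5 were lower and *Ctsb* alone was higher, against 16.8% and 19.4% of all tested rows. *Ctsk* and *Ctss*, lysosomal cathepsins, fell by 1.30 and 0.74 (adjusted p = 0.00948 and 0.0352, limma), and *Casp8* fell by 0.40 (adjusted p = 0.0311, limma). *Ctsl* and *Ctsb* passed in neither direction, with log2 fold changes of -0.26 and 0.38. Among 19 receptors and cofactors tested, 3 fell and 1 rose, against 7.03% and 11.6% of all tested rows, with a median of -0.09. At an unadjusted p under 0.05 (limma), 7 of them were lower and 1 was higher, against 16.8% and 19.4% of all tested rows. *F3* (tissue factor), which starts the coagulation cascade, rose from 19.8 ± 2.79 FPKM in WT to 56.7 ± 18.6 FPKM in TG iWAT (SD, n = 3 mice each; log2 fold change 1.43, adjusted p = 0.00908, limma). *Tfpi*, its inhibitor, *Vtn* (vitronectin), an adhesive protein of plasma and matrix, and *Plxdc2*, a PEDF receptor, fell by 0.71, 0.71 and 0.55 (adjusted p = 0.0283, 0.00371 and 0.0122, limma). *Lrp1*, the receptor that clears serpin-protease complexes, differed by -0.10 on the log2 scale (adjusted p = 0.533, limma).

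**Figure D5:**
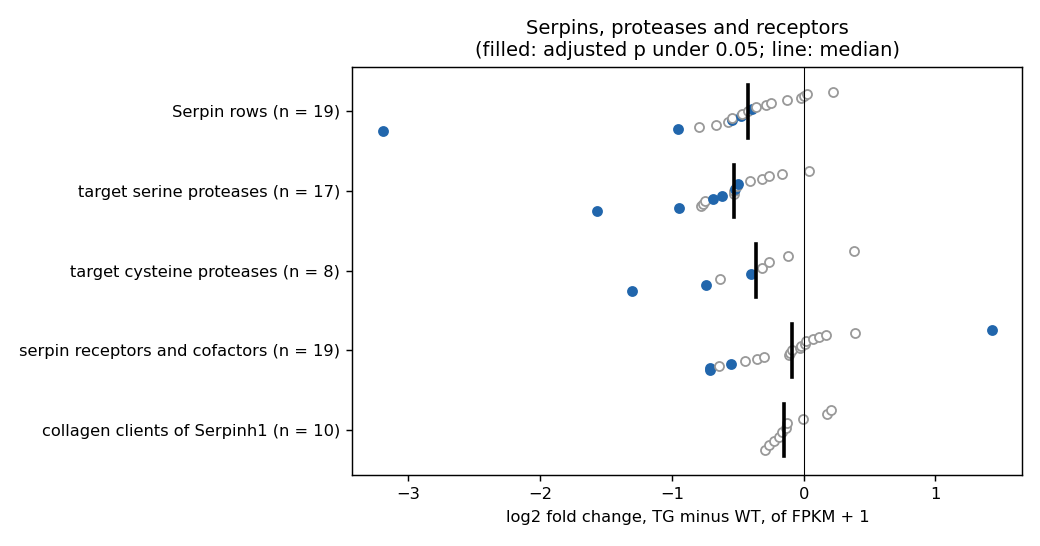
Log2 fold change of FPKM + 1 (x axis, TG minus WT) of each tested serpin row and of the tested members of 4 lists, filled for an adjusted p under 0.05, with a line at the median of each group. The medians were -0.42 for the serpin rows, -0.53 and -0.36 for serine and cysteine proteases, -0.09 for receptors and cofactors and -0.15 for collagen genes.

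Some markers of other cells were called beside these results, where 7.03% of all tested rows fell and 11.6% rose. In several lists only 1 marker was called, which is near these shares. In bulk tissue, fewer cells of a type and less RNA per cell cannot be told apart. All 8 macrophage markers had a lower mean in TG iWAT and 3 fell, *Cd68*, *Csf1r* and *Emr1*. Their sum was 348 to 514 FPKM in the TG mice and 513 to 753 FPKM in the WT mice. Of 10 lymphocyte markers, 1 fell (*Ms4a1*), with sums of 237 to 361 FPKM and 335 to 472 FPKM over the 9 on single-gene rows. All 10 had a lower mean, against 51.6% of all tested rows. At an unadjusted p under 0.05 (limma), 6 of the 8 macrophage and 4 of the 10 lymphocyte markers were lower and 0 were higher. The shares of all tested rows were 16.8% and 19.4%. Of 10 fibroblast markers, 1 fell (*Dpt*), with sums of 1348 to 1843 FPKM and 1955 to 2349 FPKM. *Dpt* had means of 202 FPKM in TG and 518 FPKM in WT iWAT, and the fibroblast median log2 fold change was -0.14. Of 8 adipocyte markers, 1 fell (*Adipoq*), with sums of 34349.8 to 38833 FPKM and 34847 to 44154 FPKM. Of 6 neutrophil markers tested, 1 rose (*Camp*), with sums of 24.1 to 59.8 FPKM and 9.25 to 22.5 FPKM. The neutrophil markers did not move together. *Cxcr2* and *Csf3r* had log2 fold changes of -0.82 and -0.32. At an unadjusted p under 0.05 (limma), 2 of the 6 were higher and 1, *Cxcr2*, was lower, against 19.4% and 16.8% of all tested rows. Of 8 endothelial markers, 2 rose (*Kdr* and *Emcn*), with sums of 191 to 205 FPKM and 179 to 185 FPKM. None of the tested mast cell (7), epithelial (12), skeletal muscle (10) and mesothelial (2) markers was called (limma). At an unadjusted p under 0.05, 1 mast cell and 3 epithelial markers were lower, 2 muscle markers were higher and 0 mesothelial markers differed. By the same measure, 2 fibroblast and 2 adipocyte markers were lower and 3 endothelial markers were higher. The sums of mast cell markers were 82.5 to 168 FPKM in the TG mice and 118 to 233 FPKM in the WT mice, and *Wt1*, a mesothelial marker, was at 0 in every mouse. The part of these cells in the serpin results was not tested.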

How the data were processed

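Total RNA of iWAT was sequenced from 3 *Hlx* transgenic and 3 littermate control mice in single-end runs with a nominal read length of 100 bases. After mapping to mm10, the authors deposited FPKM for each gene locus and mouse. The submitters' processing notes name CASAVA 1.8.2, TopHat2 2.0.9, Bowtie2 2.1.0 and Cufflinks 2.2.1. The annotation and options are not given in the sources used here. FPKM are not counts, so no count test was run, and low values are less precise in TG replicates 1 and 3, which have the lowest relative depth. Depth was compared through the steps of values under 0.3 FPKM.

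Rows whose mean was over 1 FPKM in either genotype entered a limma 3.58.1 fit (R 4.3.3) of log2(FPKM + 1) on genotype alone, with trended eBayes and two-sided p adjusted by Benjamini-Hochberg over all rows fitted. This procedure was tested on simulated data first. P-values of this fit set the difference between genotypes against the spread between mice, with each variance moderated toward a trend over all rows fitted. Single genes were also given an exact permutation test over 20 arrangements. A listed symbol on several rows was taken from the row with the highest mean. Shared windows, loop stretches and promoters were computed in Python 3.11.15 from GENCODE vM21 and RefSeq. Of the 63 serpin symbols, 62 had a GENCODE transcript, and the longest coding one was used. All serpin rows over the filter but 1 are named, and those called or among the 5 most abundant are given for each mouse. Called list members are named, and other list members and the serpins under the filter were picked after their values were seen. The members and lists were chosen with earlier results of these data known. The motifs and the loop stretch were chosen after the values were seen. In all, 17 alternative settings were run. Of the 19 tested serpin rows, 1 is counted but not reported here by itself.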

Additional observations from a re-analysis of the deposited data

How the results depend on the processing

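Under the 17 alternatives, 0 serpin rows rose in any, and the median over the serpin rows stayed between -0.49 and -0.32. The number of serpin rows that fell was 3 with no filter on low values, 3 with the replicate number as a block, 1 at an adjusted p under 0.01 and 1 when a 2-fold ratio was also required, and 3 to 7 when a mouse was left out. By clade, falls in clade A numbered 1 under either stricter call and 2 when any mouse was left out. Falls in clade B numbered 1 with no filter, without the variance trend and with the block, 0 under either stricter call, and 1 to 3 when a mouse was left out. Falls in clades E to I numbered 0 with no filter, with the block and under either stricter call, 2 with quantile normalization, and 0 to 2 when a mouse was left out. Over all rows, 748, 569 and 413 rose and 381, 199 and 204 fell with no filter, at an adjusted p under 0.01 and with a 2-fold ratio, and 780 to 1295 rose and 329 to 906 fell when a mouse was left out. Of the protease, receptor, collagen and *Agt* lists, 0 members rose and 6 fell with no filter, 5 and 4 fell under the stricter calls, and 7 to 16 fell when a mouse was left out.

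Small values changed sign. *Serpinb5* was at 0.17 and *Serpine2* at -0.021 with sample quality weights, *Serpinb9* was at -0.0031 with median-ratio scaling, and with a mouse left out *Serpinb5* ranged from -0.45 to 0.14, *Serpine2* from -0.083 to 0.0998, *Serpinb9* from -0.027 to 0.054 and *Serpinh1* from -0.11 to 0.038. The cause was not tested. Replicate numbers in the labels name no shared litter or batch. Deviations of same-numbered mice correlated at 0.013, 0.034 and 0.07 over the tested rows. Each TG mouse correlated best with a WT mouse of another number. With so few mice per genotype, these correlations cannot decide whether same-numbered mice share a litter or batch. The block therefore rests on the number alone, and no pairing is known. With the block, adjusted p was 0.0589 for *Serpinf1* and 0.0865 for *Serpinb6a*. The unknown depth limits every serpin under 1 FPKM.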
